A study of Drosophila melanogaster with 4 samples.

Results

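The bithorax complex is the cluster of the 3 Hox genes Ubx, abd-A and Abd-B on chromosome arm 3R of Drosophila melanogaster. The H1-enriched regions described here are those that overlap by at least 1 bp the window 3R 12480000 to 12810000 of Release 5 of the genome, a stretch of 330 kb that holds the 3 genes and the DNA between them. They number 9 of the 3779 regions of ChIP replicate 1, 9 of the 4665 of ChIP replicate 2 and 62 of the 18812 of a further table of the whole series, called the combined table here. The regions are those that the authors listed as significantly enriched when histone H1 was immunoprecipitated and the recovered DNA sequenced, from wild-type larvae of the third instar of the strain Oregon-R (Oregon-R-modENCODE). The series has 2 H1 ChIP and 2 input samples, all of that strain, genotype and stage and without a treatment named in the labels, and the input samples were not analysed here. The labels name no tissue, so the larval cells in which a region was enriched cannot be told apart. Nothing in the labels ties the replicates to separate collections of larvae, and their spread may be of technical origin.

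Histone H1 is the linker histone: it binds the nucleosome where DNA enters and leaves it, and it helps to fold chromatin into compact forms. Ubx, abd-A and Abd-B encode homeodomain transcription factors that give the posterior thoracic and the abdominal segments their identity, and they lie along the chromosome in the order of the segments in which they act. Where they are silent they are kept so by Polycomb group proteins, and the long stretches of DNA in and between the genes hold segment-specific enhancers, Polycomb response elements and boundary elements. All 3 genes are transcribed in the same direction, towards lower coordinates, so the transcription start of the longest transcript lies at the high end of each gene. No sequence of Release 5 was used here, and regions are given by position.

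The gene positions come from a RefSeq table of Release 6 moved to Release 5 by the constant offset for 3R of 4174278 bp with which the window itself was defined. By this offset Ubx lies at 3R 12482345 to 12560148 (77804 bp), abd-A at 12632936 to 12655771 (22836 bp) and Abd-B at 12752934 to 12797958 (45025 bp). The table holds 19 other genes that overlap the window. Among them are the long noncoding RNA genes lncRNA:bxd, between Ubx and abd-A, and lncRNA:iab8, which fills most of the stretch between abd-A and Abd-B. Exons, introns and UTRs were not used here, since the table gives whole genes alone.

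Each of the 3 Hox genes held an H1-enriched region in both replicates, as did 54.3% of the 245 genes of 3R that are at least 20 kb long, and the window as a whole was covered less than most of its arm. Replicate 1 covered 4.05% of the window and replicate 2 covered 4.12%, a mean of 4.09% ± 0.0521 (SD, n = 2). On the rest of 3R the shares were 7.24% and 8.47%. The window therefore reached 0.559 and 0.487 of the covered share of the rest of the arm, a mean ratio of 0.523 ± 0.0511 (SD, n = 2). Regions were also fewer: each replicate had 27.3 regions per Mb in the window, against 42.0 per Mb in replicate 1 and 47.7 per Mb in replicate 2 on the rest of 3R.

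Windows of the same size laid end to end along 3R gave the spread against which this share can be read. Of 82 such windows, 63 (76.8%) had a higher covered share than the bithorax window in replicate 1 and 62 (75.6%) in replicate 2. The median share of these windows was 6.51% in replicate 1 and 7.44% in replicate 2. The lowest and highest windows were at 0.421% and 16.8% in replicate 1, and at 0 and 25.3% in replicate 2. The bithorax window thus lay just under the lower quartile of the arm, at 4.12% and 4.21%, and 19 and 20 windows of 3R were covered less. Set against windows of all 5 large arms instead, it lay nearer the middle: 42.0% of them were covered less in the replicate mean, against 23.8% on 3R. The neighbouring windows were covered more in both replicates, to 8.78% and 5.93% on the side of the centromere and to 7.06% and 11.1% on the side of the telomere. No test was made, since windows are not replicates and 2 samples of 1 group allow none.

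**Figure D1:**
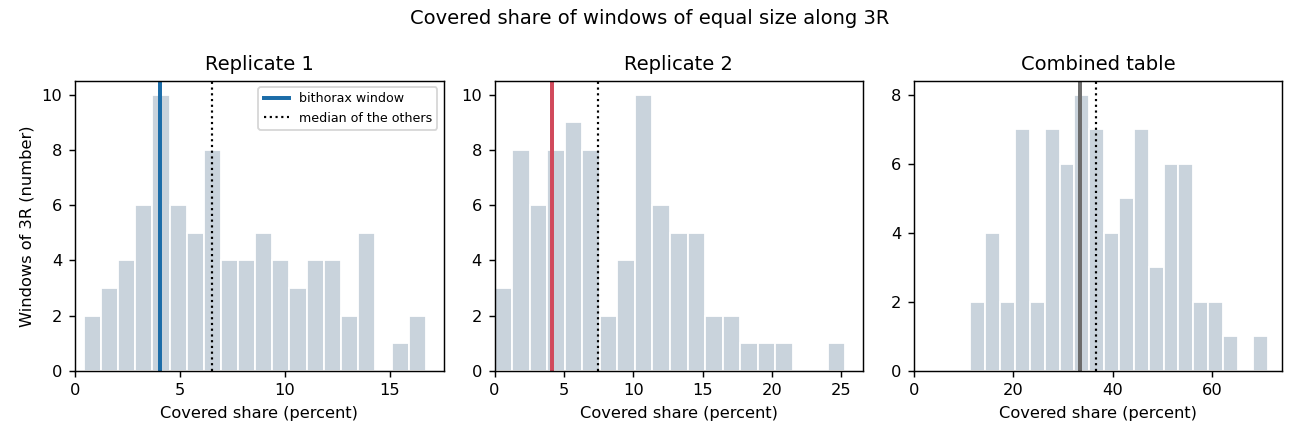
Number of windows (vertical axis) by covered share in percent (horizontal axis) for 82 windows of 3R of the same size as the bithorax window, in each of the 3 lists. The solid line marks the bithorax window, at 4.05%, 4.12% and 33.3%, and the dotted line the median of the other windows, at 6.51%, 7.44% and 36.6%.

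In the combined table the window stood closer to the rest of the arm. It was covered to 33.3%, against 37.1% on the rest of 3R, a ratio of 0.897, and 46 of the 82 windows (56.1%) had a higher share. The 62 regions came to 188 per Mb, above the 163 per Mb of the rest of 3R. They were shorter, with a median of 1502 bp against 1725 bp, and 17 of 62 (27.4%) measured at least 2000 bp, against 37.6% on all of 3R. The covered share in the combined table was 8.15 times the replicate mean in the window and 4.73 times on the rest of 3R, and 6 of the 82 windows had a higher ratio. How the authors made the combined table is not given in the sources used here.

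No region of the window was long in either replicate. The regions measured from 1313 to 1673 bp in replicate 1 and from 1309 to 1785 bp in replicate 2. On all of 3R, 19.8% of regions in replicate 1 and 22.4% in replicate 2 were at least 2000 bp long, and the longest outside the window measured 5410 and 5966 bp. The covered share of the bithorax window at that length was therefore 0 in both replicates, against 2.09% and 2.73% on the rest of the arm. With 9 regions in a list, a share of long regions is known only roughly.

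The scores of the regions, by contrast, lay within the usual range of the arm. The score is the authors' own value for a region, its scale is not stated in the sources used here, and it is compared only within a list. In replicate 1 the lowest, median and highest scores in the window were 0.41, 0.55 and 0.67, and the median of the rest of 3R was 0.53. In replicate 2 they were 0.40, 0.57 and 0.68, with a median of 0.57 on the rest of 3R. In the combined table they were 0.24, 0.38 and 0.53, with a median of 0.38 on the rest of 3R. Scores at or above the median of 3R were held by 5 of 9, 5 of 9 and 35 of 62 regions of the window. The highest scores of 3R, at 0.81, 0.85 and 2.10, lay outside it.

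The replicates marked few of the same places in the cluster. Of the 9 regions of each replicate, 2 overlapped a region of the other, or 22.2%, against 36.9% of the regions of replicate 1 and 31.7% of those of replicate 2 on all of 3R. By length, 2232 bp of the 24735 bp covered in either replicate were covered in both, which is 9.02%, against 12.3% on the rest of 3R. This share lay inside the range of the other windows, of which 34 were lower and 48 higher, with a median of 10.1%. All 9 regions of each replicate overlapped the combined table, as did 99.0% of those of 3R in each replicate. Of the 62 combined regions, 2 overlapped both replicates (9.64% did on 3R), 7 overlapped replicate 1 alone (13.2% did on 3R), 7 replicate 2 alone (16.2% on 3R) and 46 neither replicate. The last group made up 74.2% of the combined regions of the window and 61.0% of those of 3R.

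**Figure D2:**
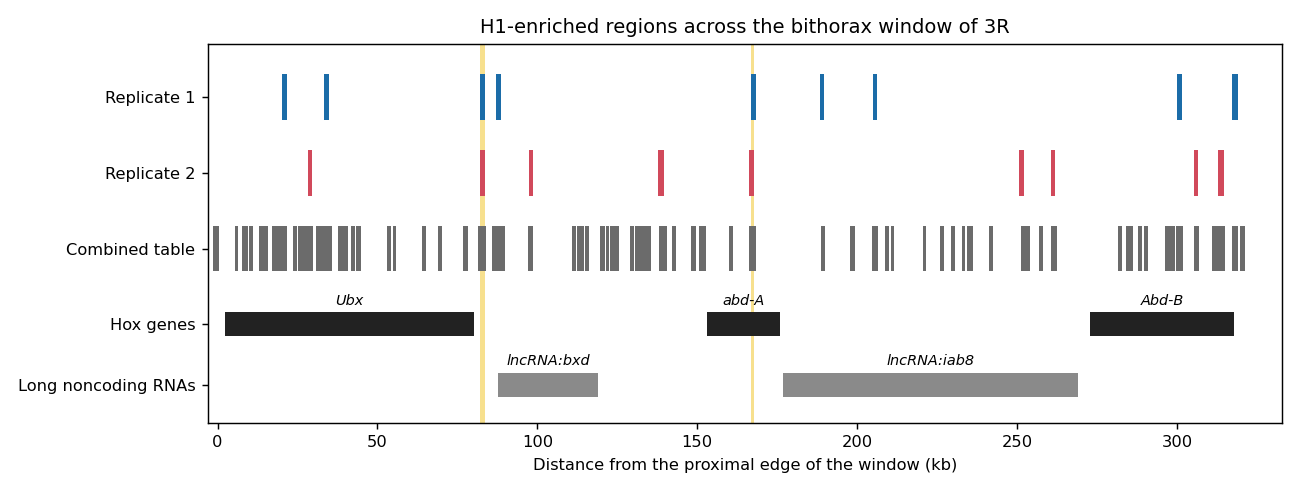
H1-enriched regions (upper 3 rows, drawn to scale) along the bithorax window, with the distance from its edge on the side of the centromere in kb on the horizontal axis; below are the 3 Hox genes and 2 long noncoding RNA genes. Yellow bands mark the 2 stretches covered in both replicates, 1 beyond the start of Ubx and 1 inside abd-A; the 62 combined regions are dense over the part of Ubx away from its start and sparse from abd-A to the middle of lncRNA:iab8.

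The first of the 2 shared places lay just upstream of Ubx. Replicate 1 had a region at 12562058 to 12563730 with a score of 0.59, and replicate 2 a region at 12562209 to 12563670 with a score of 0.50, which lies wholly within the former. The stretch covered in both measured 1462 bp and began 2061 bp beyond the high end of Ubx, where transcription of the gene starts. No gene of the table overlaps it: it falls in the gap between Ubx and lncRNA:bxd. The combined table had a region there at 12561470 to 12563946 with a score of 0.46, and 239 of its 4545 regions on 3R scored higher. In the replicates, 220 of 1166 and 1061 of 1323 regions of 3R scored higher, so the place ranked high in replicate 1 and low in replicate 2.

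The second shared place lay inside abd-A. The region of replicate 1 was at 12646853 to 12648321 with a score of 0.55, and that of replicate 2 at 12646114 to 12647622 with a score of 0.67. They had 770 bp in common, whose nearer edge lay 8149 bp inside the gene from its transcription start. The combined region, at 12646164 to 12648500, scored 0.47, and 157 of the 4545 regions of 3R scored higher. In the replicates 492 of 1166 and 100 of 1323 regions of 3R scored higher, so here replicate 2 gave the higher place.

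Ubx, the gene for the identity of the posterior thorax and the first abdominal segment, was the least covered of the 3 Hox genes in the replicates and the most covered in the combined table. Replicate 1 covered 3.83% of it with 2 regions and replicate 2 covered 1.71% with 1 region, a mean of 2.77% ± 1.50 (SD, n = 2). The combined table covered 44.9% of it with 17 regions. Among the 245 genes of 3R of at least 20 kb, the medians were 4.56%, 5.10% and 36.9% in the 3 lists. Ubx was below 134 of them in replicate 1 and below 157 in replicate 2, and above 145 in the combined table. The long genes were not matched in length to Ubx, abd-A or Abd-B. The 2 replicates had no region of Ubx in common.

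The regions of Ubx lay mostly away from its transcription start. In both replicates the part of the gene between its midpoint and its start held no region. Regions took up 7.66% and 3.42% of the other part. With 2 regions and 1 region in the gene, an empty part says little, and it was not compared with other genes. In the combined table the part with the start was covered to 24.0% and the other part to 65.9%. This difference of 41.9 percentage points exceeded the median of 13.0 points between the 2 parts of the long genes of 3R, of which 15 of 245 had a larger one. Around the start itself there was no region of replicate 1 between 45.4 kb inside the gene and 1.91 kb beyond it, and none of replicate 2 between 50.6 kb inside and 2.06 kb beyond. Gaps longer than these made up 153 of the 1165 on 3R in replicate 1 and 127 of the 1322 in replicate 2. A gap picked because it holds a given point tends to be long, so such counts overstate how rare it is. The combined table left 3215 bp free around the start, and 1224 of its 4544 gaps on 3R were longer. In bins of 10 kb along the window, combined coverage was 66.9%, 76.2% and 73.4% in bins 2, 3 and 4, all inside Ubx, and from 17.7% to 24.5% in the last 3 bins that Ubx fills.

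The dense part held both short regions and the longest pair of combined regions of the cluster. The longest combined region of the window, at 12510830 to 12515880, spanned 5051 bp and scored 0.38, and the next, at 12497020 to 12501612, spanned 4593 bp and scored 0.39. Replicate 1 covered 31.1% and 30.7% of them, by its regions at 12513222 to 12514792 and 12500174 to 12501583, and replicate 2 covered none of either. The region of replicate 2 in Ubx, at 12508185 to 12509513, had its lowest score of the window, 0.40, and 1.51% of that replicate's regions on 3R scored lower. The region of replicate 1 at 12513222 was likewise its lowest of the window, at 0.41, with 3.95% of 3R below it.

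abd-A, which acts in the abdomen from the second segment on, had almost the same covered share in both replicates. It was the least covered Hox gene in the combined table. Its shares were 6.43% in replicate 1 and 6.61% in replicate 2, a mean of 6.52% ± 0.124 (SD, n = 2). Each came from the 1 region of that replicate described above. Those regions measured 1469 and 1509 bp and had 770 bp in common, so the small SD reflects their length and not their position. Of the 245 long genes of 3R, 105 were covered more in replicate 1 and 109 in replicate 2, which puts abd-A above their middle. In the combined table it was covered to 15.1% with 2 regions, and 188 of the 245 were covered more. Both combined regions lay in the middle of the gene. When the gene was divided into 4 equal parts, the part next to the start and the part at the far end held no region in any of the 3 lists. In each replicate, with 1 region in the gene, some parts had to be empty. The start of abd-A fell in the longest stretch of the window without a combined region, 20221 bp from 12648501 to 12668721. Of 4544 gaps between combined regions on 3R, 179 were longer, and the median gap was 1187 bp. As this gap was picked for holding the start, the count overstates how rare it is.

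Abd-B, which sets the identity of the last abdominal segments, was covered more towards its transcription start, the reverse of Ubx. Replicate 1 covered 4.70% of it and replicate 2 covered 6.87%, with 2 regions each and none in common, a mean of 5.78% ± 1.54 (SD, n = 2). The combined table covered 38.7% with 10 regions. These shares lay near the middle of the long genes of 3R, of which 121, 106 and 115 were covered more in the 3 lists. The part of Abd-B between midpoint and start was covered to 9.39% and 13.7% in the replicates and 50.8% in the combined table, and the other part to 0, 0 and 26.5%. With 2 regions in each replicate, an empty part says little here too. The strongest of its replicate regions scored 0.57, at 12779979 to 12781443 in replicate 1, and 0.59, at 12785416 to 12786724 in replicate 2. The longest combined region of the gene, at 12790878 to 12794910, spanned 4033 bp with a score of 0.35, and replicate 2 covered 44.3% of it and replicate 1 none. A difference of 24.3 points between the 2 parts, as in the combined table, was exceeded in 64 of 245 long genes.

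The high end of Abd-B was the only 1 of the 3 Hox starts inside a region, and in 1 replicate alone. Replicate 1 had a region at 12797310 to 12798956 across it, with a score of 0.48, and the combined table one at 12797318 to 12799000 with 0.30; 7.46% of combined regions of 3R scored lower. Replicate 2 had no region there. Its nearest region ended 3183 bp inside the gene, at 12794775, and was with 1785 bp the longest of that replicate in the window. Beyond it replicate 2 had no region for 162325 bp, a gap that 18 of its 1322 gaps on 3R exceeded. This gap too was picked for its place, so the count overstates how rare it is. For scale, 4.90%, 4.08% and 18.0% of the ends of long genes of 3R, counting either end, lay inside a region in the 3 lists, in the order given above. Abd-B has several promoters, and the others were not placed here.

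**Figure D3:**
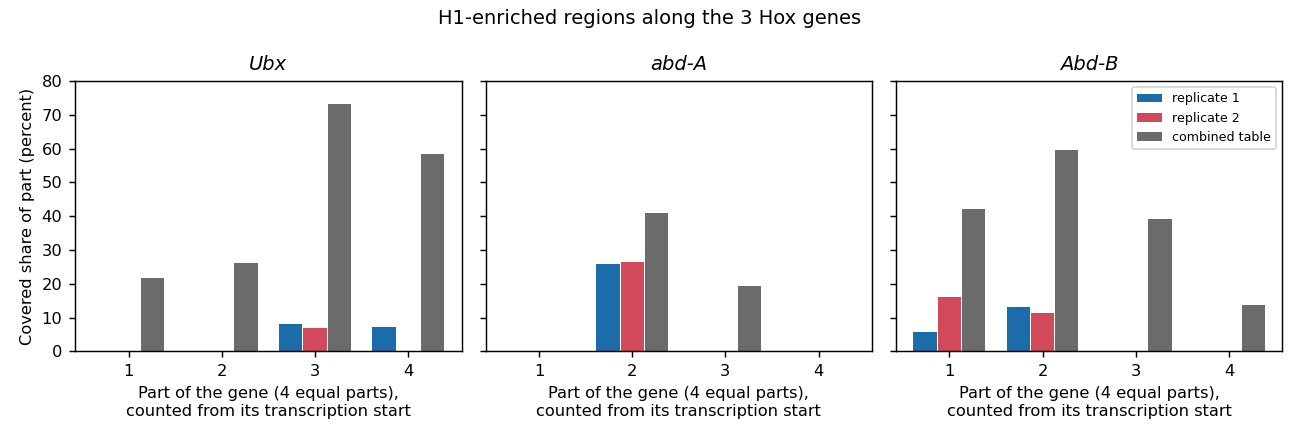
Covered share in percent (vertical axis) of 4 equal parts of Ubx, abd-A and Abd-B, counted from the transcription start (horizontal axis), in the 3 lists; missing bars are shares of 0. Combined coverage of Ubx is highest in the third part at 73.2%, that of Abd-B in the second at 59.6%, and both replicates cover abd-A in the second part alone.

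Other genes at least 20 kb long were compared with the 3 Hox genes by the distance between their covered shares in the 3 lists. These lists come from 2 samples. The shares were not scaled, and those of the combined table were mostly larger, so that table can weigh most. Closest to Ubx were CG31191, Pde6, a phosphodiesterase gene, and slo, a calcium-activated potassium channel gene, with distances of 2.76, 3.37 and 4.76 percentage points. CG31191 held no region of replicate 2, which covered 1.71% of Ubx. Closest to abd-A were CG7029, cdi and heca (3.85, 4.61 and 6.27 points). Closest to Abd-B were CG34357, 5-HT2A, a serotonin receptor gene, and CG31176 (1.87, 3.37 and 3.59 points). None of these 9 genes lies in the cluster, where lncRNA:bxd, MSAmiP and lncRNA:iab8 are the only other genes of that length. CG34357, for example, was covered to 4.51%, 8.49% and 39.6%, beside 4.70%, 6.87% and 38.7% for Abd-B.

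Each of the 3 Hox genes overlapped regions of both replicates and of the combined table. Long genes often do: of the 245 genes of at least 20 kb on 3R, 62.9% overlapped a region of replicate 1, 65.7% one of replicate 2 and 91.0% one of the combined table. Of all 4206 genes of 3R placed by the offset, most of them short, 13.4% overlapped a region of replicate 1, 12.9% one of replicate 2, 6.47% both and 42.7% one of the combined table. Of the 19 other genes of the window, 3 met a region of replicate 1, 2 a region of replicate 2, 2 both and 11 a combined region.

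The stretches between the Hox genes, where much of the regulatory DNA of the cluster lies, differed from each other in the combined table. Between Ubx and abd-A, over 72787 bp, the replicates covered 4.21% and 6.29%, and the combined table covered 42.6%. Between abd-A and Abd-B, over 97162 bp, it was 2.81%, 3.19% and 20.8%. The replicate means were 5.25% ± 1.47 and 3.00% ± 0.263 (SD, n = 2). The stretch next to Ubx was thus covered more in each list, though 2 samples allow no test. Its replicate values came from 2 and 3 regions, and those of the other stretch from 2 and 2. The lists are also not independent, since the combined table overlapped all 9 regions of each replicate. In the combined table Ubx and the stretch that follows it lay above the 37.1% of the rest of 3R, and abd-A and the stretch beyond it lay below. Abd-B, at 38.7%, was again above that share.

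**Figure D4:**
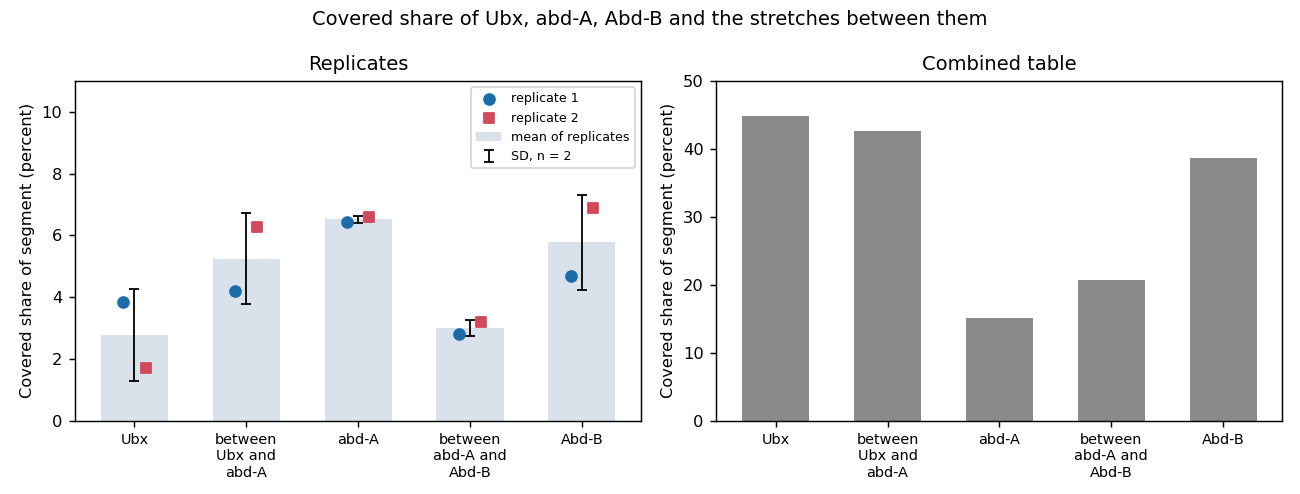
Covered share in percent (vertical axis) of Ubx, abd-A, Abd-B and the stretches between them, in the replicates (left; dots and squares are the replicates, bars their mean, error bars the SD, n = 2) and in the combined table (right). abd-A is highest in the replicate mean at 6.52%, though not in replicate 2 alone, and lowest in the combined table at 15.1%. Ubx is lowest in the replicate mean at 2.77%, though not in replicate 1 alone, and highest in the combined table at 44.9%.

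lncRNA:bxd, transcribed from the regulatory DNA upstream of Ubx, had covered shares of 2.42% and 4.29% in the replicates and of 26.2% in the combined table. Replicate 1 had a region at 12567206 to 12568597 across its low end, and replicate 2 a region at 12577302 to 12578633 inside it, so the replicates met this gene in different places. The combined table had a gap of 12261 bp inside lncRNA:bxd, from 12578583 to 12590843. CG31275, a small gene inside lncRNA:bxd, held no region.

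Between lncRNA:bxd and abd-A the only replicate region was that of replicate 2 at 12617844 to 12619626, with 1783 bp and a score of 0.56. Glut3, which encodes a glucose transporter, was covered to 95.3% by a combined region at 12614006 to 12615662. That region scored 0.50, above 98.2% of the combined regions of 3R, yet neither replicate had a region on the gene. lncRNA:CR44945 was covered to 76.2% in the combined table alone. The small genes lncRNA:CR45750 and lncRNA:TS16 held no region in any list.

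In the stretch between abd-A and Abd-B each replicate held 2 regions, in different parts of it. Those of replicate 1 lay in the part near abd-A, at 12668452 to 12669764 with a score of 0.53 and at 12684816 to 12686237 with 0.67. The latter was the highest score of that replicate in the window, above 98.3% of its regions on 3R. Those of replicate 2 lay near Abd-B, at 12730559 to 12732278 with 0.57 and at 12740576 to 12741951 with 0.68, the highest of that replicate in the window and above 94.4% of its regions on 3R. A highest score picked from 9 regions tends to rank high on the arm. All 4 regions fell within lncRNA:iab8, a long noncoding RNA gene whose covered shares were 2.97%, 3.36% and 21.9%. MSAmiP, annotated as protein coding and overlapping lncRNA:iab8, was covered to 4.20%, 0 and 21.1%.

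The highest combined scores of the cluster also lay here. They were 0.53 for the region at 12668722 to 12669876, above 99.4% of the combined regions of 3R, and 0.53 for that at 12709480 to 12710518, above 99.3%. Replicate 1 covered 90.3% of the former, and neither replicate covered any of the latter. The third highest, 0.51, lay in Abd-B at 12769770 to 12770812, with no region of either replicate. These regions were picked as the highest-scoring of the 62 in the window, so their high places on 3R follow in part from that choice. The microRNA genes mir-iab-4 and mir-iab-8 come from the opposite strands of 1 hairpin locus, which held no region in any list. lncRNA:iab4, which includes it, was covered to 23.2% in the combined table alone.

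The remaining genes of the window were met in the combined table or not at all. modSP, a serine protease gene of the Toll pathway, was covered to 55.5% by the combined region that crosses the window's edge. lncRNA:CR43617 and lncRNA:CR46267 were covered to 24.6% and 93.1%, asRNA:PS4 inside Ubx to 14.8% and VhaM9.7-d, a subunit gene of the vacuolar proton pump, to 100%. Actn3, AhcyL2 and CG18622 next to it held no region. The nearest genes outside the window were CG14907, with no region in any list, and lncRNA:CR45592, of 295 bp, which lay wholly inside a region of replicate 1 and in none of the other lists.

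In bins of 10 kb, 20 of the 33 bins of the window held no region of either replicate, against 49.9% of the bins of 3R, and 5 held regions of both, against 22.2%. Of the 33 bins, 3 held no combined region, against 20.9% on 3R. The empty bins lay in the gap inside lncRNA:bxd, over the start of abd-A and over the end of Abd-B away from its start. The median gap between combined regions was 2245 bp in the window, wider than the 1177 bp of the rest of 3R. The window still held more combined regions, at 188 per Mb against 163 per Mb. Replicate regions left longer stretches free. Replicate 1 had none for 93.7 kb from 12686238 to 12779978, from inside lncRNA:iab8 into Abd-B, and 63 of its 1165 gaps on 3R were longer. Replicate 2 had none for 82.9 kb from 12647623 to 12730558, from abd-A into lncRNA:iab8, and 77 of its 1322 gaps on 3R were longer. Each was picked as the longest gap of its list between regions of the window, so the counts overstate how rare it is. These 2 stretches overlapped in part, from 12686238 to 12730558.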

How the data were processed

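Region lists were available for 2 H1 ChIP samples and, as 1 combined table, for the series. Per the file headers, positions are on FlyBase Release 5. Each region has a score that the authors deposited. The submitters' processing notes list Bowtie 0.12.7 without saying for which step. The peak caller and threshold, any use of input reads, and depth were not given in the sources used here. Without depth, no counting interval is given, and shares are compared within a list.

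The covered share is the length inside any region divided by the length of the stretch. The comparison windows were laid end to end from both edges of the bithorax window. Gene spans are those of RefSeq Release 6 less the offset of 4174278 bp on 3R. This shift puts the last gene of the arm 10890 bp before the 3R end given in the headers, and it could not be checked against a Release 5 annotation. Strand is background knowledge. Window, members, gene lists and alternatives were chosen with earlier results of these data known. Regions named are the 3 highest-scoring and the 3 longest of each list and those combined regions that overlap both replicates. Genes named are those overlapping the window, its nearest neighbours and the 3 long genes closest to each Hox gene. Other regions, the splits of genes at the midpoint and the starts were chosen after their values were seen. The coverage code was tested on simulated data. Python 3.11.15, numpy 2.4.6, pandas 2.3.3 and matplotlib 3.10.9 were used.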

Additional observations from a re-analysis of the deposited data

How the results depend on the processing

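Leaving out each replicate in turn gave 4.05% to 4.12% for the covered share of the window, 0.487 to 0.559 for its ratio to the rest of 3R and 23.2% to 24.4% for the share of windows covered less, and 1.71% to 3.83% for Ubx, 6.43% to 6.61% for abd-A and 4.70% to 6.87% for Abd-B. Regions per Mb were 27.3 in both cases. Ubx at 1.71% without replicate 1 was more than 1.5 times below its mean of 2.77%. With regions of at least 2000 bp alone, the covered shares of the window, Ubx, abd-A and Abd-B, the regions per Mb, the ratio and the share of windows covered less were all 0, since no replicate region of the window is that long, and no overlap of the replicates could be computed. With regions that score no lower than their list's median, the window was covered to 2.03% with 13.6 regions per Mb, 33.5% of windows were covered less, the replicates shared 6.09% of the length and Ubx was covered to 0.906%; fewer regions enter there, while the ratio of 0.515, abd-A and Abd-B moved by less than the spread. The combined table gave 33.3%, a ratio of 0.897, 43.9% of windows covered less, 188 regions per Mb, and 44.9%, 15.1% and 38.7% for Ubx, abd-A and Abd-B; the cause was not tested. Windows starting every 10 kb gave 27.0% covered less, and windows of 5 arms 42.0%, closer to the middle of those windows than within 3R. Against the autosomal arms the ratio was 0.636. With 2000 bp added to each gene end abd-A was covered to 5.55%. Joining regions less than 1000 bp apart moved none of these results beyond the spread. No paired analysis was possible because the input samples, which carry the same replicate numbers, entered no comparison. The depth of the libraries is unknown, and coverage was not adjusted for copy number or mappability.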
